A study of Mus musculus with 18 samples.

Results

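The 37 genes described here encode lysosomal hydrolases, membrane proteins of the lysosome, subunits of its proton pump, and the transcription factors TFEB, TFE3 and MITF. They were taken by symbol from 24059 gene symbols in the deposited count tables, and all 37 were found in both tables. The symbols were 3 transcription factors, 10 proteases, 8 sugar or lipid hydrolases with an activator, 6 membrane or other lysosomal proteins and 10 proton pump genes. The libraries are RNA-seq of C57BL/6J mouse macrophages grown from bone marrow. The marrow cells had been differentiated for 7 days in medium with 20% L929-conditioned medium, which was lowered to 4% before treatment. On day 8, rHDL (reconstituted high-density lipoprotein CSL111, APOA1 with soybean phosphatidylcholine at 1 to 150) was given for 20 h in the groups so labelled. The cells were then washed, and lipopolysaccharide (LPS), a bacterial cell wall component that activates macrophages, was added except in the untreated group.

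There were 6 groups of 3 libraries each, in 2 count tables. The first table held untreated cells and LPS cells. The second held 4 groups that all received LPS: no pretreatment (LPS-only cells), rHDL before LPS (rHDL cells), cholesterol loading with POPC/cholesterol liposomes before LPS (loaded cells), and loading, then rHDL, then LPS (loaded rHDL cells). The 18 libraries include no rHDL group without LPS, and the second table holds no untreated cells. No label gives the dose or time of LPS, or says whether the 3 replicates came from separate animals or cultures, so p-values measure only the spread between these libraries, which may be technical.

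Lysosomes digest proteins, lipids and sugars taken up or recycled by the cell, with hydrolases that work in acid. The acid comes from the vacuolar ATPase (V-ATPase), in which a V1 sector outside the membrane splits ATP and a V0 sector in the membrane carries protons. TFEB, TFE3 and MITF are related transcription factors that bind E-box letters in the promoters of many lysosomal genes, the element known as CLEAR. They are held in the cytoplasm when mTORC1 at the lysosome is active and are controlled mainly by phosphorylation, so the level of their RNA is not their activity. Macrophages are rich in lysosomes, and the cholesterol carried by particles they take up is released there.

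Promoter sequence was available in RefSeq (GRCm38.p6) for 31 of the 37 genes, in 42 windows that run from 250 bases before a transcription start to 50 after it. The letters CACGTG, the palindromic core of the CLEAR element, stood in a window of 11 of the 31 genes (35.5%). Over all 27025 genes with a window the share was 8.09%, and over the 7367 of them that were tested here it was 11.8%. The longer palindrome TCACGTGA, which contains the shorter one, was present for 7 of the 31 (22.6%), against 1.12% of all genes with a window and 2.23% of those tested. By their call with rHDL, described further on, CACGTG was present in 6 of 13 genes called higher (Ctsd, Gla, Lamp1, Mcoln1, Atp6v0d1 and Atp6v1a), 3 of 7 called lower (Ctsa, Lgmn and Cln3) and 1 of 5 not called (Ctsl). It was also present in 1 of 6 not tested (Gaa). A match describes the letters only. Both strands were searched, and TCACGTGA and CACGTG read the same on both.

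Stretches are printed for the 4 called genes with these letters that had the smallest p with rHDL, to show where the letters lie. Each runs 5′ to 3′ on the strand of the gene, with CACGTG in capitals, and starts are those of RefSeq. Atp6v0d1 encodes a V0 subunit, and its stretch (chr8:105566062-105566094, minus strand) ends at a site that begins 3 bases before the start and runs across it. Mcoln1 encodes a calcium channel of the lysosome, and its stretch (chr8:3500447-3500506, plus strand) holds sites beginning 71 and 45 bases before the start. Ctsd encodes the aspartic protease cathepsin D, with a site 98 bases before a RefSeq start (chr7:142387893-142387952, minus strand). Atp6v1a encodes the catalytic subunit of the V1 sector, with a site 131 bases before the start (chr16:44139358-44139417, minus strand).
Atp6v0d1: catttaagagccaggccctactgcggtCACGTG
Mcoln1: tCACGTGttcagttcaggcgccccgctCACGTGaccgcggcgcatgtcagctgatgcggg
Ctsd: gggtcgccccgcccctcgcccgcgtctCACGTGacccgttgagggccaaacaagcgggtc
Atp6v1a: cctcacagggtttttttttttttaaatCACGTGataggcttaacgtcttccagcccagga

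Libraries of the first table held 11450243 to 16835472 counts, and those of the second 9464916 to 15607889. Levels are given as CPM, counts relative to the library size as scaled by TMM, with the SD over 3 libraries. TMM factors were 1.28 to 1.29 in untreated libraries and 0.766 to 0.798 in LPS libraries beside them, while the 12 other libraries had 0.934 to 1.07. Of 8 macrophage markers in the tables, 7 could be tested, and the list summed to at least 11589 CPM in every library, while Itgam had no counts. Neutrophil markers summed to at most 9.29 CPM in any library, dendritic to 2.69 and lymphoid to 0.419. A gene without counts in any group, such as Itgam or the neutrophil marker S100a9, may be unexpressed or may share its exon bases with other transcripts. The sums may therefore be too low. Stromal, endothelial and epithelial markers summed to at most 3.79 CPM except in replicate 3 of the loaded cells (17.4 CPM, from Col1a1 and Col3a1). With bulk RNA, fewer cells of a type and less RNA per cell cannot be told apart.

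How much of each gene was measured set what could be said of it. Where an annotated transcript shares every exon base with another (6698 rows), 6697 of the rows hold 0 counts. No source gives the counting settings, and the values are read here as counts of reads that reach exon bases that no other row shares. Such reads can also cover shared bases, as 1 row of Psap had 232 counts in untreated cells with 5 unshared bases. For 24 of the 37 genes every exon base was unshared, and 9 had under 20%. Ctss, which encodes the protease cathepsin S, had 3 unshared bases and no counts in any library, so it was not measured. Atp6v0a1 (0.4% unshared) and Atp6v0c (3.0%, sharing bases with the copy Atp6v0c-ps2) had at most 5 counts in any group of 3 libraries. Values of Ctsa (2.2%), Psap (2.9%), Gaa (4.5%), Tfe3 (9.9%), Mitf (10.0%), Cln3 (14.9%) and Tfeb (27.4%) describe the few stretches that are unshared, not the whole gene.

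In untreated macrophages, CPM per kilobase of unshared exon, a level, was led by the cathepsin genes Ctsd (5796) and Ctsb (3959), then Ctsz (1274) and Lamp1 (1017), which encodes an abundant lysosomal membrane protein. The 8 pump subunits with all their bases unshared lay between 80.0 for Atp6v1d and 474 for Atp6v1b2. Atp6v0d2, which encodes a form of the V0 subunit d that osteoclasts also use, was at 289, above the other form, Atp6v0d1, at 88.3. Among genes with over 50% of their bases unshared, the lowest were Mcoln1 (31.4), Neu1 (26.9), which encodes a sialidase, and Smpd1 (14.1), which encodes acid sphingomyelinase.

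The LPS comparison of the first table asks how the lysosomal genes respond to LPS. Of 33 genes tested, 7 were called higher and 13 lower, and 13 were not called. The calls are at an adjusted p under 0.05 in edgeR's quasi-likelihood test with Benjamini-Hochberg adjustment over all genes. Of all 9576 genes tested, 35.3% were called higher and 37.6% lower, and of the members 21.2% and 39.4%. The median log2 fold change was -0.11 for the members and -0.05 for all genes. Scaled by library totals only, the median of all genes was -0.77, and 1 member was called higher and 27 lower. The share of all calls that were higher was then 18.7% in place of 48.4%, so directions in this comparison are relative to the scaling.

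Tfeb was called lower with LPS. Its CPM was 4.77, 4.05 and 5.64 in untreated replicates 1, 2 and 3, and 0.589, 0.477 and 0.433 in the LPS cells. Every untreated library lay above every LPS library, and the log2 fold change was -3.24 ± 0.27 (SE, n = 3 a group, edgeR's adjusted p = 1.08e-06). Nearly all of these counts came from the first exon of the transcript that starts at the upstream end of the gene (mm10 chromosome 17, 47737037 to 47737316, plus strand), with 267 of 273 counts in untreated cells. Transcripts with other first exons had at most 4 counts per group, and exons shared by the transcripts add no row of their own. In the second table Tfeb had 2 to 4 counts per group of 3 libraries, too few to test.

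Tfe3 had 10 counts in the untreated libraries together and 0 in the LPS libraries of the first table together. A count of 0, in a library or in such a sum, allows up to 3 counts for counting error only. In the 4 groups of the second table it had 4, 5, 11 and 4 counts, and it was not tested. Mitf, which was measured mainly through 1 first exon (mm10 chromosome 6, 97807058 to 97807287), had 8.71, 10.3 and 8.29 CPM in untreated cells and 10.5, 7.39 and 10.2 in LPS cells. These groups overlapped, and Mitf was not called (adjusted p = 0.844). In the second table its CPM was 3.30, 2.0 and 2.18 in LPS-only cells, 3.03, 3.27 and 3.54 in rHDL cells, 3.02, 3.47 and 3.55 in loaded cells, and 3.20, 2.43 and 2.73 in loaded rHDL cells. Neighbouring groups overlapped, and with TMM Mitf was not called in any comparison of that table. Its rHDL effect after loading minus that without loading was -0.66 ± 0.29 (edgeR's unadjusted p = 0.0402). That difference was called lower with library totals, but not by DESeq2.

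Among proteases, Ctsc rose with LPS. It encodes cathepsin C, which activates serine proteases of immune cells (mm10 chromosome 7, 88278093 to 88310875). Its CPM was 187, 172 and 218 in untreated cells and 404, 358 and 439 in LPS cells, without overlap. The log2 fold change was 1.06 ± 0.11 (edgeR's adjusted p = 4.29e-06), and Ctsc was the single member still called higher with library totals only. Ctsz, which encodes the carboxypeptidase cathepsin Z, rose by 0.58 ± 0.09 with TMM but stood at -0.13 with library totals. Ctsk (-0.51 ± 0.11), Ctsd (-0.32 ± 0.10) and Tpp1 (-0.22 ± 0.08), a tripeptidase gene, fell. Ctsb, Ctsl and Lgmn were not called.

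Ctsa encodes cathepsin A, which protects the sialidase NEU1 and beta-galactosidase, and it was called lower with LPS through 78 unshared bases of an alternative first exon (mm10 chromosome 2, 164833773 to 164833850). Its CPM was 1.39, 2.14 and 1.16 in untreated cells and 0.337, 0.556 and 0.0867 in LPS cells. The groups did not overlap, and the log2 fold change was -2.23 ± 0.47 (adjusted p = 0.00135). Neurl2, a gene on the opposite strand whose exons overlap Ctsa, moved alongside, from 7.54 ± 0.734 to 1.36 ± 0.52 CPM (log2 fold change -2.46 ± 0.24). All 98 rows whose unshared bases depend on strand hold 0 counts, as they would if strand was not used in counting, and the part of Neurl2 in the value of Ctsa was not tested.

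No sugar or lipid hydrolase was called higher with LPS, by edgeR, by DESeq2 or at an unadjusted p under 0.05, and 5 of 8 fell. Library totals gave 0 higher and 8 lower, where 6640 of all 9576 genes were lower. Smpd1 fell from 34.5, 34.0 and 33.2 CPM to 19.4, 19.9 and 16.7, a log2 fold change of -0.86 ± 0.09. Gusb (-0.54 ± 0.08) encodes beta-glucuronidase, Neu1 (-0.44 ± 0.08) the sialidase and Gla (-0.43 ± 0.08) alpha-galactosidase A. Psap, which encodes the precursor of the saposins that present lipids to these enzymes, had 4.40, 5.50 and 3.40 CPM in untreated cells and 1.35, 0.477 and 0.607 in LPS cells. Its log2 fold change of -2.47 ± 0.34 rests on 263 and 29 counts with 78 unshared bases. Of these counts, 232 and 25 belong to 1 transcript that a 5-base stretch marks (mm10 chromosome 10, 60296305 to 60296309). A 71-base stretch (60284461 to 60284531) marks another transcript, with 8 counts in untreated cells and 1 in LPS cells. One more is marked by a 2-base stretch (60299092 to 60299093), with 23 and 3 counts. Outside these stretches no row has bases of its own. Asah1, Hexa and Gaa were not called.

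Membrane and other lysosomal proteins included 3 of 6 called higher with TMM, and none lower by edgeR, by DESeq2 or at an unadjusted p under 0.05, while library totals gave 0 higher and 3 lower. Cln3, which encodes a membrane protein lost in juvenile Batten disease, had 11.1, 12.1 and 9.86 CPM in untreated cells and 19.7, 19.5 and 20.1 in LPS cells. Its log2 fold change was 0.83 ± 0.11 (adjusted p = 2.91e-05), and 0.12 without a call under library totals. Lamp2 had 391, 382 and 388 CPM in untreated cells and 522, 606 and 620 in LPS cells (log2 fold change 0.59 ± 0.08). Scarb2, which encodes the receptor that carries beta-glucocerebrosidase to lysosomes, had 112, 119 and 107 CPM and then 171, 164 and 173 (log2 fold change 0.59 ± 0.07). Both Lamp2 and Scarb2 stood at -0.13 with library totals only. Lamp1, Mcoln1 and Grn, the progranulin gene, were not called.

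Of 8 pump subunits tested with LPS, 2 were called higher and 3 lower with TMM, and 0 higher and 7 lower with library totals. Atp6v0d2 fell from 696, 774 and 703 CPM to 389, 369 and 326, without overlap (log2 fold change -1.0 ± 0.09, adjusted p = 1.44e-06). Atp6v1h, which encodes a regulatory V1 subunit, had 170, 166 and 179 CPM in untreated cells and 248, 310 and 284 in LPS cells (log2 fold change 0.71 ± 0.09, and -0.01 with library totals). Atp6v1d rose by 0.27 ± 0.09, with -0.45 under library totals, while Atp6v1a (-0.23 ± 0.07) and Atp6v1b2 (-0.28 ± 0.10) fell. Atp6ap1, Atp6v0d1 and Atp6v1c1 were not called. The groups of Atp6v1b2 overlapped. Leaving out untreated replicate 1 or 2 ended the calls of Atp6v1a, Atp6v1b2, Atp6v1d and Tpp1. LPS replicate 3 ended those of Atp6v1a, Atp6v1b2, Tpp1 and Ctsd when left out, and untreated replicate 2 ended that of Ctsd as well. Tpp1 was also not called without LPS replicate 2 or with DESeq2, and its adjusted p reached 0.107.

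Markers moved in this comparison too. Macrophage markers summed to 26860 to 31946 CPM in untreated cells and 30044 to 35422 in LPS cells, and 4 of 7 were called higher with TMM, but 1 higher and 5 lower with library totals. Osteoclast markers summed to 226 to 241 and 227 to 262 CPM, with Itgb3 (-2.33 ± 0.22) and Tnfrsf11a (-0.73 ± 0.09) lower and Mmp9 (0.78 ± 0.11, and 0.07 without a call under library totals) higher. Ctsk and Atp6v0d2 are also genes of osteoclasts. The neutrophil genes S100a8 and Ngp were higher, in a list that summed to at most 9.29 CPM. The dendritic gene Xcr1 was higher by 1.30 ± 0.32, and not called with library totals, in a list that summed to 0.612 to 0.973 CPM in untreated cells and 2.17 to 2.69 in LPS cells. Their part in the values of the lysosomal genes was not tested.

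**Figure D1:**
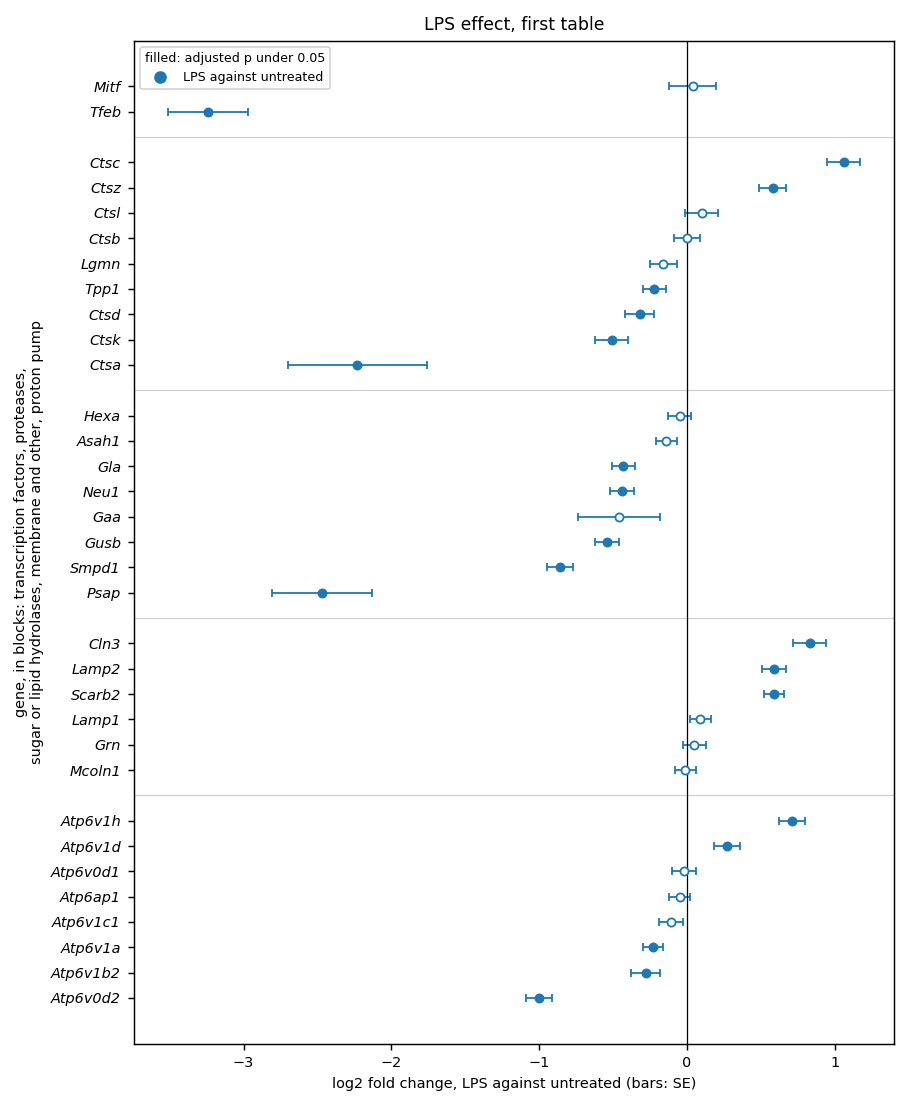
Log2 fold change with LPS against untreated cells (x axis, bars are SE, 3 libraries a group, TMM scaling) for the 33 genes tested, in blocks by role. Tfeb (-3.24), Psap (-2.47) and Ctsa (-2.23) lie farthest to the left and Ctsc (1.06) farthest to the right, and filled points passed an adjusted p of 0.05. With library totals only, 27 of the 33 were called lower. Ctsz, Lamp2, Scarb2, Atp6v1d and Atp6v1h, called higher here, then turned below 0.

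The rHDL comparison asks what pretreatment with rHDL changes in cells that then receive LPS. Of 31 genes tested, 19 were called higher (61.3%) and 7 lower (22.6%), and 5 were not called. Over all 8965 genes tested, 18.1% were called higher and 18.4% lower. The median log2 fold change was 0.38 for the members and 0.03 for all genes. Among the 27 genes with over 50% of their exon bases unshared, 19 were called higher and 5 lower. With library totals the all-gene median was 0.14 in place of 0.03 and 66.3% of calls were higher in place of 49.5%, with 19 members called higher and 4 lower. Leaving out LPS-only replicate 1 or rHDL replicate 2 also left 4 called lower, and over all libraries left out in turn 16 to 18 were called higher.

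All 8 pump subunits that could be tested rose with rHDL, by log2 fold changes of 0.41 to 1.13 with a median of 0.66. In each of the 8, every rHDL library lay above every LPS-only library, which held for 26.9% of all genes tested. Atp6v0d2 had 91.0, 96.5 and 88.0 CPM in LPS-only cells and 181, 211 and 210 in rHDL cells. The log2 fold change was 1.13 ± 0.11, or 2.19-fold (edgeR's adjusted p = 2.32e-06), the largest rise among the members. Atp6v1c1, which encodes the V1 subunit C that joins the sectors, had 176, 194 and 203 CPM in LPS-only cells and 360, 351 and 364 in rHDL cells (log2 fold change 0.91 ± 0.06, adjusted p = 1.41e-07). Atp6v0d1, whose promoter stretch is printed above, had 120, 123 and 135 CPM and then 222, 213 and 220 (0.79 ± 0.06, adjusted p = 3.83e-07). The rHDL libraries of these genes were close to each other, with SDs of 4.53 to 16.9 CPM.

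The other pump genes followed with Atp6v1d (0.69 ± 0.09), Atp6v1a (0.62 ± 0.07), Atp6v1h (0.54 ± 0.08), Atp6v1b2 (0.45 ± 0.06) and Atp6ap1 (0.41 ± 0.06). Atp6v1b2 encodes the B subunit of V1 and Atp6ap1 an accessory protein of the pump. All 8 were called higher under DESeq2 and with library totals as well. In the authors' deposited table of genes past their filter with rHDL, 6 of these 8 are listed, all with a positive log2 fold change, from 0.52 for Atp6v1h to 1.12 for Atp6v0d2.

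**Figure D2:**
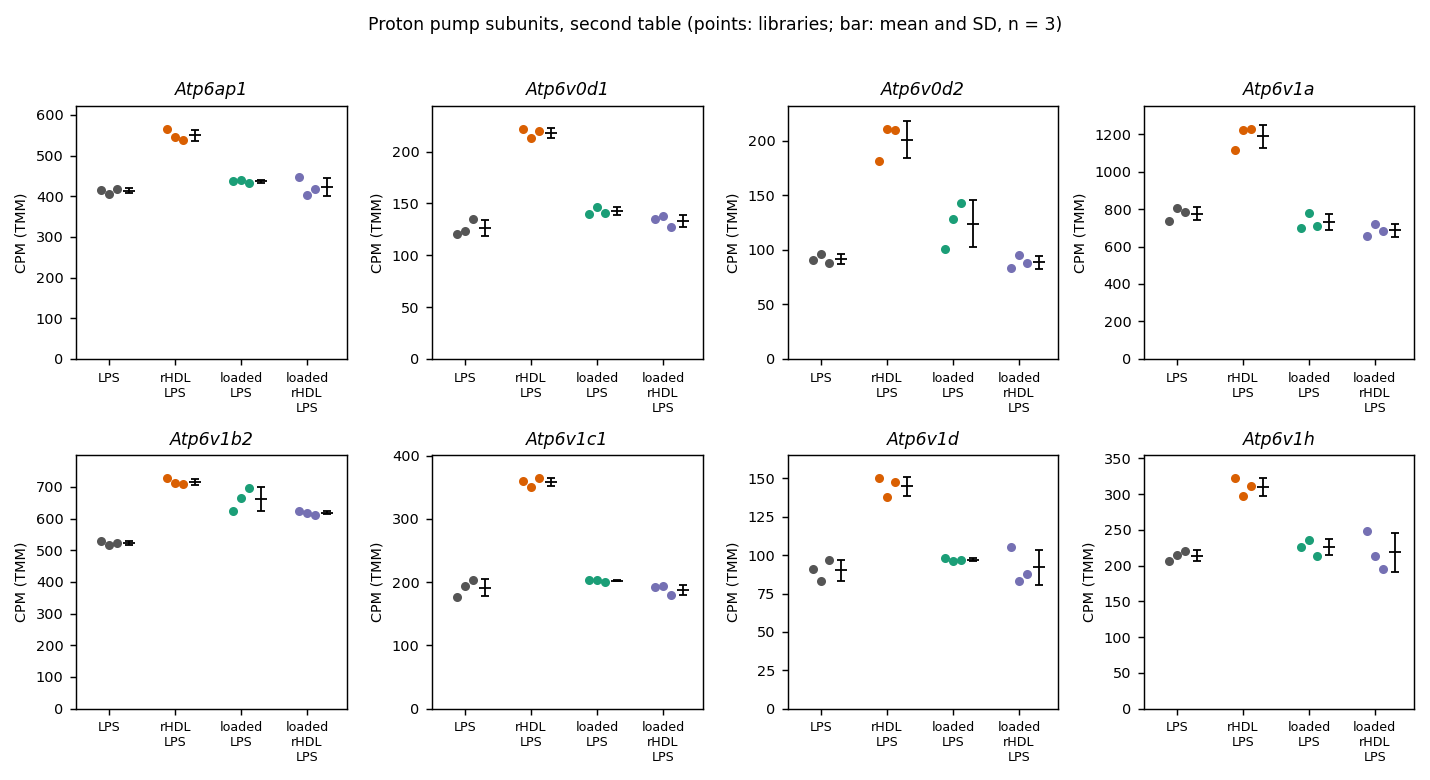
CPM (y axis from 0) of the 8 pump subunits tested in each library of the second table (points), with the mean and SD of 3 libraries beside them. In each panel the rHDL cells lie above the LPS-only cells, from 550 against 413 CPM for Atp6ap1 to 201 against 91.8 for Atp6v0d2, while the mean of the loaded rHDL cells lies below that of the loaded cells.

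Among membrane and other proteins, Mcoln1 rose most. It had 35.1, 39.5 and 36.4 CPM in LPS-only cells and 66.4, 70.0 and 66.8 in rHDL cells, without overlap. The log2 fold change was 0.87 ± 0.08, or 1.83-fold (adjusted p = 1.14e-06). Lamp1 passed narrowly at 0.17 ± 0.06 (adjusted p = 0.0461) and lost its call when any 1 of the 6 libraries compared was left out. The other 4 genes of this role fell.

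Grn, the progranulin gene, had 1521, 1268 and 1432 CPM in LPS-only cells and 1134, 977 and 1050 in rHDL cells. The groups did not overlap, and the log2 fold change was -0.42 ± 0.09 (adjusted p = 0.00232). Cln3 (-0.38 ± 0.12), Lamp2 (-0.27 ± 0.09) and Scarb2 (-0.25 ± 0.07) fell by less, and these 3 lost their calls with library totals only and without LPS-only replicate 1 or rHDL replicate 2. Lamp2 also lost it without LPS-only replicate 3 or rHDL replicate 3, Scarb2 without LPS-only replicate 3, and Cln3 without LPS-only replicate 2 or rHDL replicate 1. Lamp2 has 3 annotated last exons. That at mm10 chromosome X, 38419503 to 38421851, went from 426 ± 41.9 to 341 ± 22.2 CPM, and that at 38405049 to 38405571 from 118 ± 5.21 to 111 ± 13.7. The last of them, at 38401357 to 38402281, had at most 1.95 CPM in any group of the second table, and these exons were not tested one by one.

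Proteases went both ways, with 4 of 9 called higher and 3 lower. Ctsd rose from 4420, 4337 and 4474 CPM to 6904, 7072 and 7070, a log2 fold change of 0.67 ± 0.07 (adjusted p = 2.41e-06). Per kilobase of unshared exon its level went from 2257 to 3590 CPM, and that of Ctsb from 2534 to 3217. Tpp1 (0.45 ± 0.06), Ctsz (0.38 ± 0.07) and Ctsb (0.34 ± 0.06) also rose. Ctsc fell from 1182, 1039 and 1123 CPM in LPS-only cells to 495, 481 and 472 in rHDL cells, with no overlap. Its log2 fold change was -1.21 ± 0.07, or 2.31-fold lower (adjusted p = 2.29e-08), and its p was the smallest among the members. Lgmn, which encodes the asparagine-specific protease legumain, had 779, 719 and 793 CPM and then 640, 544 and 566 (log2 fold change -0.39 ± 0.08, adjusted p = 0.0019).

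Ctsa was called lower with rHDL as well, from 2.13, 1.36 and 1.74 CPM to 0.506, 0.487 and 0.301 over its 78 bases. The log2 fold change was -1.96 ± 0.38 (adjusted p = 0.000949) and rests on 51 and 19 counts. Its neighbours fell too, Neurl2 by -1.71 ± 0.16 and Pltp, whose exons overlap the other end of Ctsa, by -1.23 ± 0.06, both on the log2 scale. Their part in the value of Ctsa was not tested. Ctsk was not called, at 14.6, 11.6 and 14.0 CPM against 16.9, 14.8 and 15.2, groups that did not overlap. Ctsl was not called either, at 726, 763 and 705 CPM against 758, 703 and 699, which overlapped.

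Of the sugar and lipid hydrolases, 5 of 7 tested rose with rHDL. Neu1 rose most, from 31.3, 36.6 and 35.6 CPM to 58.0, 58.5 and 61.7 (log2 fold change 0.78 ± 0.08, adjusted p = 2.23e-06). Smpd1 rose by 0.66 ± 0.11 and Gla by 0.55 ± 0.08. Gusb and Asah1, which encodes acid ceramidase, rose by 0.18 ± 0.06 each. Both lost their calls without any 1 of the 3 rHDL libraries or without LPS-only replicate 1 or 2, with adjusted p up to 0.0825 for Gusb and 0.0962 for Asah1. Hexa and Psap were not called, and Gaa had too few counts in the second table to be tested.

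**Figure D3:**
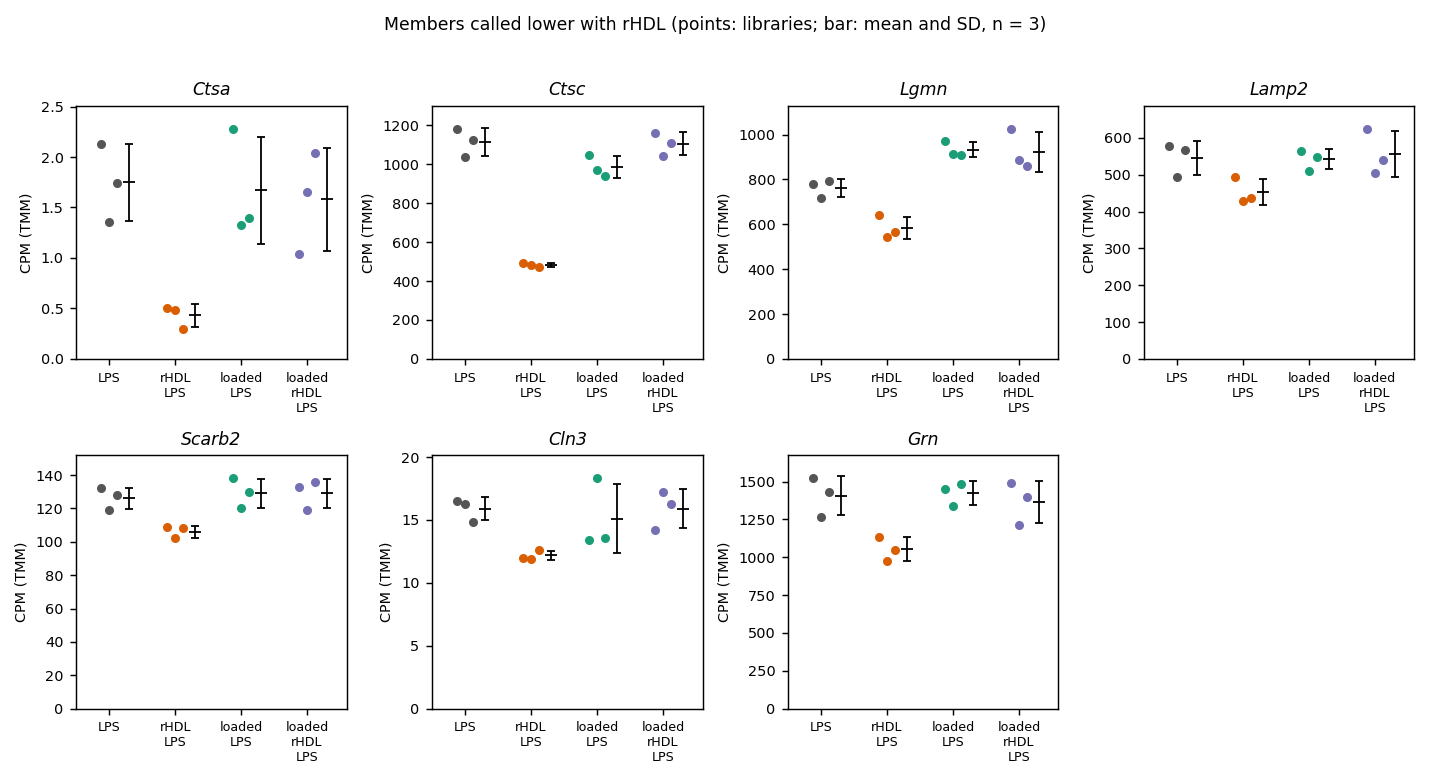
CPM (y axis from 0) of the 7 members called lower with rHDL in each library of the second table (points), with the mean and SD of 3 libraries beside them. Ctsc falls from 1115 to 483 CPM, while Scarb2 goes from 126 to 106 CPM, and in the loaded cells the groups without and with rHDL overlap in every panel. With library totals only, Lamp2, Scarb2 and Cln3 were not called.

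Markers of macrophages moved with rHDL alongside the members. Of 7 tested, 5 were called lower and 1 higher, and the summed level of the list was 20987 to 22874 CPM in LPS-only cells and 11589 to 14103 in rHDL cells. Csf1r, the receptor of the growth factor that sustains macrophages, fell by 0.84 on the log2 scale (SE 0.06), and Fcgr1, an antibody receptor gene, fell by 2.60 (SE 0.23). Cd68, a lysosomal glycoprotein used as a macrophage marker, rose by 0.51 (SE 0.07). Osteoclast markers summed to 156 to 191 CPM in LPS-only cells and 73.1 to 75.6 in rHDL cells. Of 4 osteoclast markers tested, 2 were called lower and 1 higher. Tnfrsf11a, the receptor that starts osteoclast formation, fell by 1.33 (SE 0.08) and Itgb3, an integrin gene, rose by 2.37 (SE 0.34). Calcr, Oscar and Nfatc1 had no counts in any group, which can also arise where exon bases are shared. The neutrophil gene S100a8 fell by 1.78 (SE 0.22), in a list that summed to 7.45 to 8.41 CPM without rHDL and 1.73 to 2.91 with it. The part of these changes in the values of the lysosomal genes was not tested.

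Other genes of the same pathway were read from lists, by counts against the 18.1% and 18.4% of all genes. These lists, like the members, were chosen with earlier results of these data known, so their counts are descriptive only. Of 9 other V-ATPase subunits tested, 5 rose with rHDL and 2 fell, with Atp6v1f at 0.66 ± 0.08 and Atp6ap2, an accessory protein, at 0.45 ± 0.07. The 2 that fell, Atp6v0a2 (-0.29 ± 0.08) and Tcirg1 (-0.53 ± 0.16, 22.1% unshared), encode forms of the large V0 subunit a and were named after their values were seen. Neither was called with library totals only. Of 15 other lysosomal membrane proteins, 7 rose and 1 fell. Ctns, the cystine exporter gene, rose by 1.41 ± 0.18 and Clcn7, the chloride transporter gene, by 0.54 ± 0.06.

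The 26 other hydrolases and activators tested split into 7 higher and 8 lower with TMM, and 10 and 4 with library totals. Dnase2a, which encodes the lysosomal DNase, rose by 0.93 ± 0.10, and Man2b1, which encodes lysosomal alpha-mannosidase, fell by 0.56 (SE 0.06). Genes that control TFEB at the lysosome had 6 of 17 called higher. No gene of that list was called lower by edgeR, while 1 was by DESeq2 and 1 at an unadjusted p under 0.05. Lamtor3, part of the scaffold that holds the Rag GTPases, rose by 0.83 ± 0.07 and Fnip1, a partner of folliculin, by 0.64 ± 0.07. Of 9 genes for delivery of hydrolases, 2 rose and 2 fell, with the smallest p for Gga2 (1.32 ± 0.13), an adaptor for mannose 6-phosphate receptors, and the retromer gene Vps35 (0.45 ± 0.06). Cathepsin inhibitors had 1 of 4 higher and 2 lower, with Cstb, the stefin B gene, at 0.75 ± 0.09 and Cst7, the cystatin F gene, at -1.29 ± 0.31.

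The same contrast in cells loaded with cholesterol before rHDL gives the effect of rHDL after loading. Of 31 genes tested, Gusb was the single member called, and it was lower. Among all genes 0.424% were called higher and 0.591% lower. No member was called higher by edgeR or by DESeq2, and 1 was higher and 5 lower at an unadjusted p under 0.05, against 1044 of 8965 genes in either direction. DESeq2 called 2 members lower. The median log2 fold change was -0.09 for the members and 0.00 for all genes.

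Gusb had 453, 451 and 464 CPM in loaded cells and 379, 355 and 350 in loaded rHDL cells, without overlap. The log2 fold change was -0.34 ± 0.06 (edgeR's adjusted p = 0.0107). Without loaded replicate 2 or loaded replicate 3 no member was called lower, nor with only the libraries of these groups in the fit, and without loaded replicate 1 there were 2. Atp6v0d2 had 101, 128 and 143 CPM in loaded cells and 83.2, 95.1 and 87.9 in loaded rHDL cells. These groups did not overlap, and the gene missed the threshold in edgeR (log2 fold change -0.48 ± 0.11, adjusted p = 0.0555). It was called lower by DESeq2 (adjusted p = 0.00755), without the low-count filter (edgeR's adjusted p = 0.00183) and without loaded replicate 1 (edgeR's adjusted p = 0.0107). Over all alternatives run, its adjusted p was up to 0.275.

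Whether the effect of rHDL differed with loading was tested by the interaction, the rHDL effect after loading minus the rHDL effect without it. Of 31 members, 4 were called higher (12.9%) and 18 lower (58.1%), against 16.0% and 14.2% of all genes, and DESeq2 gave the same counts. A negative value means that the effect after loading was below that without loading. The median was -0.46 for the members and -0.03 for all genes, and library totals moved that of all genes to -0.20 and the share of calls that were higher from 53.0% to 32.4%. Leaving out single libraries left 16 to 20 members lower and 2 to 6 higher, with 2 higher without LPS-only replicate 1 or 3, rHDL replicate 2 or 3, or loaded replicate 3.

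All 8 pump subunits had a lower rHDL effect after loading. Atp6v0d2 differed most, with 1.13 ± 0.11 without loading, -0.48 ± 0.11 after it and a difference of -1.61 ± 0.15 (adjusted p = 5.96e-06). Atp6v1c1 had 176, 194 and 203 CPM in LPS-only cells and 360, 351 and 364 in rHDL cells, but 203, 203 and 201 in loaded cells and 192, 194 and 179 in loaded rHDL cells. The difference was -1.01 ± 0.09 (adjusted p = 3.12e-06). Atp6v0d1 differed by -0.89 ± 0.09, Atp6v1d by -0.77 ± 0.12, Atp6v1a by -0.70 ± 0.10, Atp6v1h by -0.58 ± 0.12, Atp6v1b2 by -0.55 ± 0.08 and Atp6ap1 by -0.46 ± 0.08.

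Mcoln1 had 39.1, 44.5 and 39.6 CPM in loaded cells and 37.2, 35.6 and 41.3 in loaded rHDL cells, groups that overlap. Its difference was -0.98 ± 0.11 (adjusted p = 2.47e-05). Neu1 differed by -1.0 ± 0.11, from 0.78 ± 0.08 without loading and -0.22 ± 0.08 after it. It had 43.4, 45.4 and 46.6 CPM in loaded cells and 39.2, 40.7 and 36.4 in loaded rHDL cells. The other hydrolases called lower in this test were Smpd1 (-0.77 ± 0.15), Gla (-0.72 ± 0.11), Gusb (-0.52 ± 0.08) and Asah1 (-0.27 ± 0.08). Proteases called lower were Ctsd (-0.81 ± 0.09), Tpp1 (-0.50 ± 0.09), Ctsb (-0.45 ± 0.08) and Ctsz (-0.33 ± 0.10). Asah1 lost its call without LPS-only replicate 1 or 2, loaded replicate 2 or 3, or loaded rHDL replicate 3. Ctsz lost its call without LPS-only replicate 1 or 3, rHDL replicate 1, loaded replicate 1 or 3, or loaded rHDL replicate 2 or 3.

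Higher values of the difference belonged to 4 genes that fell with rHDL without loading. Ctsc had 1046, 971 and 938 CPM in loaded cells and 1161, 1041 and 1111 in loaded rHDL cells, and its difference was 1.37 ± 0.10 (adjusted p = 5.88e-07). Ctsa had 2.28, 1.33 and 1.40 CPM and then 1.04, 1.65 and 2.04 (difference 1.86 ± 0.49, adjusted p = 0.0109), beside a difference of 1.53 ± 0.22 for its neighbour Neurl2 and 1.19 ± 0.09 for Pltp. Lgmn had 973, 915 and 911 CPM in loaded cells and 1026, 887 and 859 in loaded rHDL cells (difference 0.37 ± 0.12, adjusted p = 0.0252). Grn had 1453, 1336 and 1483 CPM and then 1488, 1211 and 1396 (difference 0.36 ± 0.13, adjusted p = 0.0488). Lgmn and Grn lost these calls with library totals only, and without LPS-only replicate 1 or 3, rHDL replicate 2 or 3, or loaded replicate 2 or 3. Grn also lost it without loaded replicate 1 or loaded rHDL replicate 1 or 3. In all 4 genes the loaded groups without and with rHDL overlapped.

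**Figure D4:**
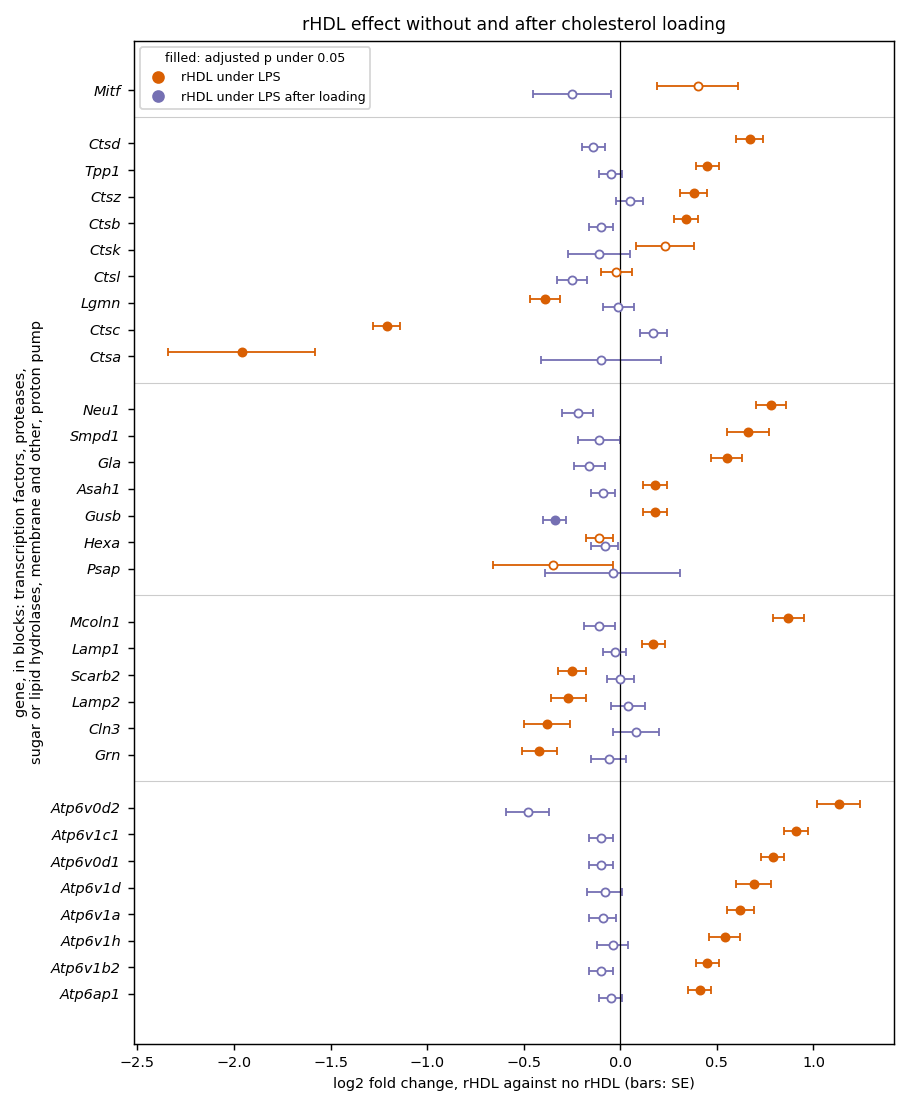
Log2 fold change with rHDL (x axis, bars are SE, 3 libraries a group, TMM scaling) for the 31 genes tested, without loading (orange) and after loading (violet), in blocks by role. Without loading the 8 pump subunits lie between 0.41 and 1.13, and after loading between -0.48 and -0.04. Filled points passed an adjusted p of 0.05, and with library totals only Lamp2, Scarb2 and Cln3 did not.

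Markers of macrophages summed to 20623 to 22377 CPM in loaded cells and 18081 to 22105 in loaded rHDL cells. Of the 7 macrophage markers tested, 5 had a higher rHDL effect after loading and Cd68 a lower one. Osteoclast markers summed to 120 to 127 CPM in loaded cells and 145 to 163 in loaded rHDL cells. The difference of rHDL effects was 1.67 ± 0.11 for Tnfrsf11a, -2.03 ± 0.56 for Itgb3 and 1.65 ± 0.32 for the neutrophil gene S100a8, all called. The part of these changes in the values of the lysosomal genes was not tested. The lists of other genes of the pathway stand against 16.0% of all genes higher and 14.2% lower in this test. Other V-ATPase subunits had 5 of 9 lower and 1 higher, with the smallest p for Atp6v1f (-0.70 ± 0.11). Other membrane proteins had 8 of 15 lower, with the smallest p for Ostm1 (-0.69 ± 0.09), the partner of Clcn7, and none higher by edgeR or DESeq2, with 1 at an unadjusted p under 0.05. Genes of TFEB control had 7 of 17 lower and 1 higher, and the other hydrolases 8 of 26 lower and 4 higher. Delivery genes had 2 of 9 lower and 1 higher, and cathepsin inhibitors 1 of 4 in each direction.

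Cholesterol loading by itself was compared with LPS-only cells. This comparison shares the LPS-only libraries with the rHDL comparison and the loaded libraries with the comparison after loading, so their values are set side by side and not correlated. Of 31 members, 7 were called higher (22.6%), against 3.99% of all genes. No member was called lower by edgeR or by DESeq2, 1 was lower at an unadjusted p under 0.05, and 4.57% of all genes were called lower. The median log2 fold change was 0.08 for the members and 0.01 for all genes. Library totals gave 10 members higher, and the share of all calls that were higher was 71.1% in place of 46.6%. Without LPS-only replicate 1 or 3 or loaded replicate 2 or 3, 4 members were called higher.

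Gusb rose most with loading, from 309, 298 and 314 CPM to 453, 451 and 464. The log2 fold change was 0.57 ± 0.06, or 1.48-fold (edgeR's adjusted p = 2.21e-05), and for Gusb the rHDL effect without loading was 0.18 ± 0.06. Atp6v0d2 had 91.0, 96.5 and 88.0 CPM and then 101, 128 and 143 (0.43 ± 0.11, adjusted p = 0.0267). Smpd1 had 14.3, 13.3 and 13.2 CPM and then 17.4, 16.6 and 20.2 (0.41 ± 0.11, adjusted p = 0.0352). In these 3 genes the loaded libraries lay above the LPS-only libraries without overlap. Groups did not overlap in 11 of the 31 members, some of them not called, and the share over all genes was not counted.

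Neu1 rose by 0.38 ± 0.08, Ctsd by 0.38 ± 0.06, Atp6v1b2 by 0.34 ± 0.06 and Lgmn by 0.29 ± 0.08. For Lgmn the rHDL effect without loading was -0.39 ± 0.08, the other direction. For Neu1, Ctsd and Atp6v1b2 it was 0.78 ± 0.08, 0.67 ± 0.07 and 0.45 ± 0.06. Lgmn and Smpd1 lost their calls without any 1 of the 6 libraries compared, with adjusted p up to 0.141 and 0.162. Atp6v0d2 lost its call without LPS-only replicate 1 or 3 or loaded replicate 2 or 3, with adjusted p up to 0.136. Mcoln1 was not called with loading, nor were the other 6 pump subunits tested.

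**Figure D5:**
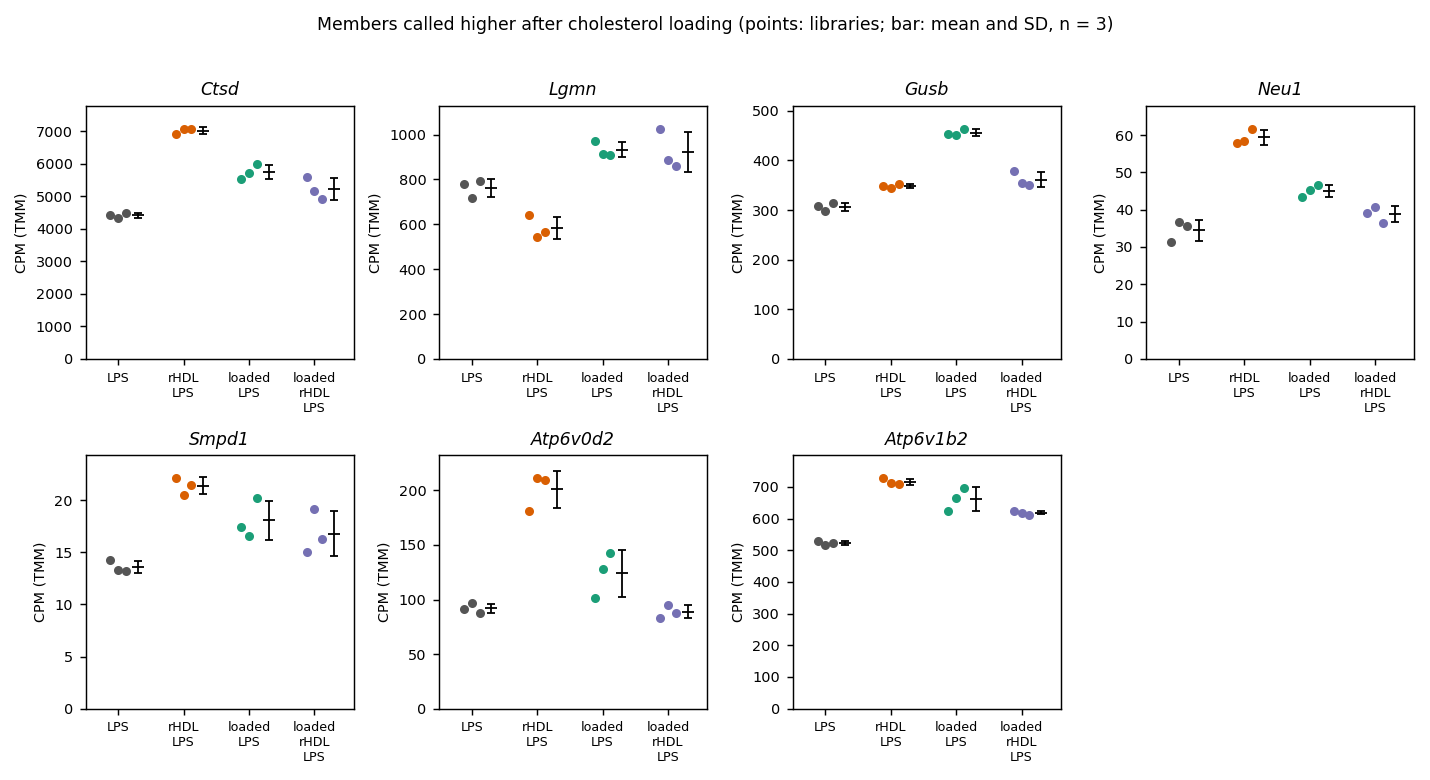
CPM (y axis from 0) of the 7 members called higher after cholesterol loading in each library of the second table (points), with the mean and SD of 3 libraries beside them. Gusb is at 307 CPM in LPS-only cells, 348 in rHDL cells, 456 in loaded cells and 361 in loaded rHDL cells.

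Other hydrolases and activators had 7 of 26 (26.9%) called higher with loading, against 3.99% of all genes. None of the 26 was lower by edgeR, by DESeq2 or at an unadjusted p under 0.05, against 4.57% of all genes called lower. Galc, which encodes galactosylceramidase, rose by 0.67 ± 0.08 and Acp2, which encodes lysosomal acid phosphatase, by 0.43 ± 0.06. In the comparison after loading, Gm2a (-0.33 ± 0.06), the GM2 activator gene, and Manba (-0.46 ± 0.10), the beta-mannosidase gene, were the 2 called lower of this list. That is 7.69%, against 0.591% of all genes. With LPS, the same list had 2 of 26 higher (7.69%) and 10 lower (38.5%), against 35.3% and 37.6% of all genes. With library totals it had 0 higher and 26 lower, where 6640 of all 9576 genes were lower. The smallest p belonged to Sgsh (-3.01 ± 0.15), the sulfamidase gene, and Galc (-1.08 ± 0.07).

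Remaining lists in the LPS comparison stand against 35.3% of genes higher and 37.6% lower, with TMM. Other V-ATPase subunits had 7 of 9 higher, with the smallest p for Atp6v1e1 (1.65 ± 0.10) and Atp6v0a2 (0.35 ± 0.07, and -0.36 with library totals), but 1 higher and 7 lower with library totals. Other membrane proteins had 5 of 15 higher and 7 lower, and 2 and 12 with library totals, with Clcn7 at 1.72 ± 0.07. Genes of TFEB control had 8 of 18 higher and 6 lower, and 2 and 16 with library totals. Tfec, another relative of TFEB found mainly in macrophages, rose by 4.92 ± 0.10, from 13.6 ± 0.514 to 411 ± 34.9 CPM, and Rragd, a Rag GTPase gene, fell by 2.09 (SE 0.13). For delivery of hydrolases 5 of 9 were higher and 1 lower, and 0 and 8 with library totals, with Gga2 at -1.11 ± 0.09 and M6pr, the mannose 6-phosphate receptor gene, at 0.55 ± 0.07 (-0.17 with library totals). Cst7 rose by 6.73 ± 0.18, the single call among 4 cathepsin inhibitors.

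With loading, the remaining lists stand against 3.99% of all genes higher and 4.57% lower. Other V-ATPase subunits had 1 of 9 lower (Tcirg1, -0.61 ± 0.16, not called with library totals), and other membrane proteins had 1 of 15 higher (Ostm1, 0.37 ± 0.06). TFEB control had Lamtor4 higher (0.51 ± 0.14) and Fnip2 lower (-0.50 ± 0.11, not called with library totals) of 17. Markers of macrophages summed to 20623 to 22377 CPM in loaded cells, a range that overlapped that of the LPS-only cells. Of the 7 tested, Csf1r was lower, by 0.24 (SE 0.06), and not called with library totals. Osteoclast markers summed to 156 to 191 CPM in LPS-only cells and 120 to 127 in loaded cells, with Tnfrsf11a lower by 0.58 (SE 0.08). The neutrophil gene S100a8 was lower by 0.92 (SE 0.21). Their part in the values of the lysosomal genes, Atp6v0d2 among them, was not tested. Genes of delivery and cathepsin inhibitors had none called by edgeR or DESeq2, with 1 delivery gene at an unadjusted p under 0.05.

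Levels in the LPS group of the first table and the LPS-only group of the second differed for several members. Atp6v0d2 was at 361 ± 32.4 and 91.8 ± 4.34 CPM, Ctsc at 400 ± 40.7 and 1115 ± 71.6, and Mitf at 9.38 ± 1.73 and 2.49 ± 0.705. The tables were scaled separately and no test was made across them. In the authors' deposited tables, 13 of the 37 genes are among the 1609 listed for rHDL, and none of the 37 among the 47 listed for rHDL after loading. Those 13 include Ctsc (-1.22), Neu1 (0.77) and Mcoln1 (0.86), each a log2 fold change of the authors' deposited table.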

How the data were processed

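Bulk RNA-seq libraries of mouse bone marrow-derived macrophages were read from 2 deposited count tables, with 6 and 12 libraries. Per the submitters' processing notes, cutadapt, HISAT2, featureCounts of Subread, DESeq2 and mm10 were used. No source used here gives their roles or versions. Per the labels' protocols, RNA had an integrity number above 8 and poly-dT selection. The deposited values are raw counts per annotated transcript (32850 rows), and 6697 of the 6698 rows without exon bases of their own hold 0 counts. All 98 rows whose unshared bases depend on strand also hold 0. The authors' deposited comparison tables hold log2 fold changes and p-values of listed genes only.

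Rows were summed per symbol. The tables were fitted apart in edgeR 4.0.16 (R 4.3.3, limma 3.58.1; quasi-likelihood test, filterByExpr with a minimum count of 10, TMM, Benjamini-Hochberg adjustment over all genes, threshold 0.05), and the 12 libraries of the second table shared 1 fit. The script was tested on simulated data. Alternatives were DESeq2 1.42.0 and its size factors, library totals, other filters, the row with the largest count, a replicate block, smaller fits and leaving out libraries. Replicate numbers were not taken to pair libraries.

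Named genes were the transcription factors, up to 4 called members with the largest rise and 4 with the largest fall per comparison, members whose rHDL effects differed, and up to 2 genes with the smallest p per list, of which 1 is not reported here. The members and lists were chosen with earlier results of these data known. A count of 0 allows up to 3 counts, for counting error only.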

Additional observations from a re-analysis of the deposited data

Results flagged for a closer look

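For 22 of the 31 members tested, the rHDL effect differed between loaded and unloaded cells in the interaction test (edgeR's adjusted p under 0.05). Each value is the log2 effect after loading minus that without loading, and a negative value means the effect was lower after loading. Among pump genes it was -1.61 for Atp6v0d2, -1.01 for Atp6v1c1, -0.89 for Atp6v0d1, -0.77 for Atp6v1d, -0.70 for Atp6v1a, -0.58 for Atp6v1h, -0.55 for Atp6v1b2 and -0.46 for Atp6ap1. Among sugar and lipid hydrolases it was -1.0 for Neu1, -0.77 for Smpd1, -0.72 for Gla, -0.52 for Gusb and -0.27 for Asah1. Proteases had -0.81 for Ctsd, -0.50 for Tpp1, -0.45 for Ctsb and -0.33 for Ctsz, and Mcoln1 had -0.98. The 4 positive values were 1.86 for Ctsa, 1.37 for Ctsc, 0.37 for Lgmn and 0.36 for Grn.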

How the results depend on the processing

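Library totals in place of TMM gave 1532 genes higher and 6640 lower with LPS (members 1 and 27), 2507 higher with rHDL (4 members lower), 25 higher after loading, 2124 lower in the difference (2 members higher), and 626 higher and 254 lower with loading. With LPS, Ctsz, Lamp2 and Scarb2 turned to -0.13, Atp6v1d to -0.45 and Atp6v1h to -0.01, and after loading Ctsz turned to -0.01. After loading, DESeq2 called 89 genes higher and 2 members lower, no low-count filter gave 90 higher, 86 lower and 2 members lower, and the fit of only the groups compared gave 19, 23 and 0. That smaller fit gave 691 genes lower with loading. The share of calls after loading that were higher was 41.8%, against 27.2% with library totals and 54.3% with DESeq2. The cause was not tested.

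Leaving out 1 library at a time gave 4 to 6 members lower with rHDL, and after loading 10 to 68 genes higher, 20 to 55 lower and 0 to 2 members lower. It gave 2 to 6 members higher in the difference, and with loading 158 to 245 genes higher, 189 to 349 lower and 4 to 5 members higher. After loading, uncalled values crossed 0, with ranges of -0.35 to 0.21 for Ctsa, -0.03 to 0.10 for Ctsz, -0.09 to 0.04 for Lgmn, -0.12 to 0.02 for Grn and -0.14 to 0.04 for Atp6v1h. Of the single values, 10 of 20 with LPS, 20 of 26 with rHDL, 15 of 22 after loading, 18 of 22 in the difference and 4 of 7 with loading kept direction and side of the threshold in every alternative run.

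With the replicate block, 277 genes were higher, 209 lower and 3 members lower after loading, 7 members were higher in the difference, and 717 genes were higher, 934 lower and 1 member lower with loading. The share of calls after loading that were higher was 57.0%. Same-numbered libraries correlated at -0.0765 to 0.0741 with LPS, where 1 of 6 libraries correlated best with its own number. The range was -0.0302 to 0.243 with rHDL (4 of 6), -0.00454 to 0.284 after loading (4 of 6) and 0.047 to 0.254 with loading (6 of 6).

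With 3 libraries a group, small effects rest on single libraries, and Tfeb, Tfe3, Gaa, Atp6v0a1 and Atp6v0c had too few counts to be tested in the second table.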
